A study of Mus musculus with 18 samples.

Results

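The genes described here are 10 genes of protein folding and protein degradation in the endoplasmic reticulum (ER), namely Hspa5, Hsp90b1, Calr, Pdia4, Dnajb9, Sdf2l1, Creld2, Edem1, Herpud1 and Xbp1. They were chosen by symbol: every array probe whose platform annotation carried 1 of these symbols was taken, which gave 16 of the 45281 probes. Of these, 12 probes passed the detection filter, at least 1 for every gene, out of 19154 probes and 10557 genes kept in all. Each gene was represented by its brightest kept probe.

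RNA came from CGR8 cells, a feeder-independent line of mouse embryonic stem cells (strain 129P2/Ola). Each cell line carried a stably integrated siRNA that is switched on by tetracycline (Tc). In the lines Ncl-1 and Ncl-2 the siRNA was directed against nucleolin (Ncl), an abundant RNA-binding protein of the nucleolus, and in the third line it was directed against EGFP, a jellyfish-derived reporter that is no mouse gene. Each line was kept with Tc (+Tc) or without it (-Tc) for 3 days, with 3 arrays for each of the 6 groups, Ncl-1 +Tc and -Tc, Ncl-2 +Tc and -Tc, and EGFP +Tc and -Tc. The labels say neither whether a line is 1 clone nor that replicates were separate cultures, so a p-value covers only the spread among these arrays, which could be technical. Values are log2 signals after background correction and quantile normalization, differences are +Tc minus -Tc on the log2 scale with the standard error (SE) of 1 limma fit to all 18 arrays, and a call is an adjusted p below 0.05 (Benjamini-Hochberg over all 10557 genes). In RNA from whole cultures, fewer cells of a type and less RNA per cell cannot be told apart.

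Proteins that enter the ER fold there with the help of the chaperones Hspa5 (BiP) and Hsp90b1 (Grp94), the lectin chaperone Calr and disulfide isomerases such as Pdia4, while misfolded proteins are sent back to the cytosol and degraded by the proteasome. When unfolded proteins accumulate, the unfolded protein response raises such genes through the transcription factors ATF6 and spliced XBP1. These factors act on promoter elements such as the ER stress element. A further arm, the kinase PERK, slows protein synthesis and favours ATF4, a factor that also answers amino acid shortage.

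The promoters are shown for the members whose window held an ER stress element or a related motif, so that the element in Herpud1 can be set beside those of the other members. Windows run from 250 bases before to 50 after the gene's start, are taken from RefSeq (GRCm38.p6) and are written 5′ to 3′ on the gene's strand. Motif bases are in capitals. The ER stress element (ERSE, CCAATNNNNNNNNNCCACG) was searched on both strands and appears as CGTGG, 9 bases and ATTGG when it lies on the other strand. ERSE-II is ATTGGNCCACG and the ATF4 composite core is TTGCATCA. The motifs other than ERSE were added after the expression values had been seen.
Herpud1 (chr8:94386179-94386478, + strand): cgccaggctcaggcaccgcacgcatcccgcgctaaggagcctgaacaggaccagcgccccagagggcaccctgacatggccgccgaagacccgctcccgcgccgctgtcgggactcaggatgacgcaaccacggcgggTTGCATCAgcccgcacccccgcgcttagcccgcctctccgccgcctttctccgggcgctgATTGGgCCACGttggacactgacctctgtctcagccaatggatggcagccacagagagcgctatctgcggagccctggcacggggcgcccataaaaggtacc
Hspa5 (chr2:34771840-34772139, + strand): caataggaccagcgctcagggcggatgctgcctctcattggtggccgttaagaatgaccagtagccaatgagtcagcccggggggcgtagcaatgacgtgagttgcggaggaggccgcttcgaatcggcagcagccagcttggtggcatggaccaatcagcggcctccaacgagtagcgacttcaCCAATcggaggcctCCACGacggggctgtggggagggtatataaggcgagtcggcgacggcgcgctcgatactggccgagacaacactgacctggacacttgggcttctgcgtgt
Hsp90b1 (chr10:86705395-86705694, - strand): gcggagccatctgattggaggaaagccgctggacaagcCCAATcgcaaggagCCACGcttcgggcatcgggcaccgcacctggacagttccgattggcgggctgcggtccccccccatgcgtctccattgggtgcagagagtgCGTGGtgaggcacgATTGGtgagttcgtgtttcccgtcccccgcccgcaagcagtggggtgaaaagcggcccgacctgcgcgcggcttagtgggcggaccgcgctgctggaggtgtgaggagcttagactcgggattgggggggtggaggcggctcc
Calr (chr8:84846882-84847181, - strand): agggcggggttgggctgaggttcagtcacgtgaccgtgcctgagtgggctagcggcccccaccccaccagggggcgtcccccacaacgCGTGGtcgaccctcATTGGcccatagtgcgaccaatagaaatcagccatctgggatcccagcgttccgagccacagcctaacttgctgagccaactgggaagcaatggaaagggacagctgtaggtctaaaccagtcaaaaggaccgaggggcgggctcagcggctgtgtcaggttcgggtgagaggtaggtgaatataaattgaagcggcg
Creld2 (chr15:88819396-88819695, + strand): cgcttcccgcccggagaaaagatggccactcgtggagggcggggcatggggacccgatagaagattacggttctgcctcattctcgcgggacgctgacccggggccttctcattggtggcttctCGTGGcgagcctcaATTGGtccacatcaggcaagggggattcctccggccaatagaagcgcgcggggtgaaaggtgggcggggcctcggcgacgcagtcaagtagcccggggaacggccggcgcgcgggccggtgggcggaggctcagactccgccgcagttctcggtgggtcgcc

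An ERSE was found in 4 of the 10 member windows (40%), against 39 of 32851 RefSeq promoter windows (0.119%). It lay at positions -65 to -47 in Hspa5, -162 to -144 in Calr and -126 to -108 in Creld2, counted from the start, and Hsp90b1 held 2, at -212 to -194 and -107 to -89. Only exact matches were counted, and near matches, such as ccaatggatggcagccaca in the Herpud1 window, were not searched for. Herpud1 had no exact ERSE but was the 1 member with an ERSE-II, ATTGGGCCACG at -52 to -42, a motif present in 12 of all windows (0.0365%). It was also the 1 member with an ATF4 composite core, at -112 to -105, which 294 of all windows held (0.895%). Outside the members, the ER chaperone list held both motifs too, the ERSE-II in Dnajb11 at 8 to 18 and the composite core in Cnpy2 at -121 to -114. Among 22 windows of ATF4 target genes, 5 (22.7%) held this core, those of Chac1, Atf3, Slc7a11, Vldlr and Nupr1. The core TGACGTGG of the unfolded protein response element (222 windows, 0.676%) and the cyclic AMP element TGACGTCA (588 windows, 1.79%) were in no member window. The windows of Pdia4, Dnajb9, Sdf2l1, Edem1 and Xbp1 held none of the 5 motifs. The motif searches overlap in the CCAAT and CCACG blocks that ERSE and ERSE-II share, and a match describes letters, not binding. The members include known targets of the response that acts on ER stress elements, so their motif shares are no independent evidence of enrichment.

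The targeted gene fell in both nucleolin lines, by 4.67 ± 0.36 to 3.92% of the -Tc signal in the Ncl-1 line and by 4.37 ± 0.36 to 4.83% in the Ncl-2 line, against 0.07 ± 0.36 in the EGFP line. Between 18099 and 21015 probes were detected per array. All 10 embryonic stem cell markers were detected on all arrays. The 8 trophectoderm markers summed to a linear signal of 8898 to 13424 in Ncl-1 +Tc and 1449 to 2801 in Ncl-1 -Tc, 9803 to 12051 in Ncl-2 +Tc and 1777 to 2238 in Ncl-2 -Tc, and 1909 to 4208 in EGFP +Tc and 1945 to 4033 in EGFP -Tc. Most of the sum in Ncl-1 +Tc and Ncl-2 +Tc came from Tfap2c. This gene had a mean log2 signal of 13.19 and 13.13 there, against 10.29 and 10.31 without Tc. Krt7 had 8.60 and 9.23, against 5.16 and 5.14, and Krt18 had 6.90 and 7.57, against 6.40 and 6.75. Krt8 had 8.29 and 9.15, against 8.32 and 8.65. The defining genes Cdx2, Eomes, Elf5 and Hand1 were detected on at most 2 of 3 arrays of any group. The 11 primitive endoderm markers summed to 3532 to 3559 in Ncl-1 +Tc and 2469 to 3427 in Ncl-1 -Tc, 2831 to 3610 in Ncl-2 +Tc and 2451 to 3266 in Ncl-2 -Tc, and 2812 to 4232 in EGFP +Tc and 3059 to 4210 in EGFP -Tc. Gata6 had a mean of 7.18 and 7.55 in Ncl-1 +Tc and Ncl-2 +Tc, against 6.11 and 5.70 without Tc. Lama1 had 11.46 and 11.37, against 11.04 and 11.09, whereas Sox7 had 5.73 and 5.31, against 6.68 and 6.78. Afp, Ttr and Foxa2 of this list were not detected on any array, and of 8 fibroblast genes Thy1 alone was detected throughout. The part of these markers in the results below was not tested. The arrays numbered replicate 3 stood apart from the others: over all genes the median absolute gap between replicate 3 and the mean of replicates 1 and 2 was 0.46, and 17.8% of genes had a gap above 1.

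Of the 10 genes, Herpud1 fell in both nucleolin lines and no other member passed the test without the replicate block, in either direction. Herpud1 was 1 of 10 called in the Ncl-1 line, where 8.12% of all genes tested were called, and 1 of 10 in the Ncl-2 line, where the share of all genes was 9.13%. No member was called in the EGFP line, where limma called 0 genes (0%) and 13 had an unadjusted p below 0.05. These 13 were 0.123% of all genes, fewer than a p below 0.05 lets pass when nothing changes. The fit without the block is thus conservative, and a missed call does not show that a gene was unchanged. Counted by probe, both Herpud1 probes and none of the other 10 member probes were called, beside 5.72% of all kept probes in the Ncl-1 line and 6.54% in the Ncl-2 line. The median difference of the 10 members was -0.33 in the Ncl-1 line and -0.42 in the Ncl-2 line, against -0.04 and -0.05 over all genes, and 0.02 in the EGFP line against -0.00. The sign of the difference was negative for 8 of 10 members in the Ncl-1 line, 9 of 10 in the Ncl-2 line and 4 of 10 in the EGFP line. The +Tc and -Tc arrays did not overlap for 2 members in the Ncl-1 line, 3 in the Ncl-2 line and 0 in the EGFP line, beside 22.6%, 24.0% and 1.85% of all genes.

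**Figure D1:**
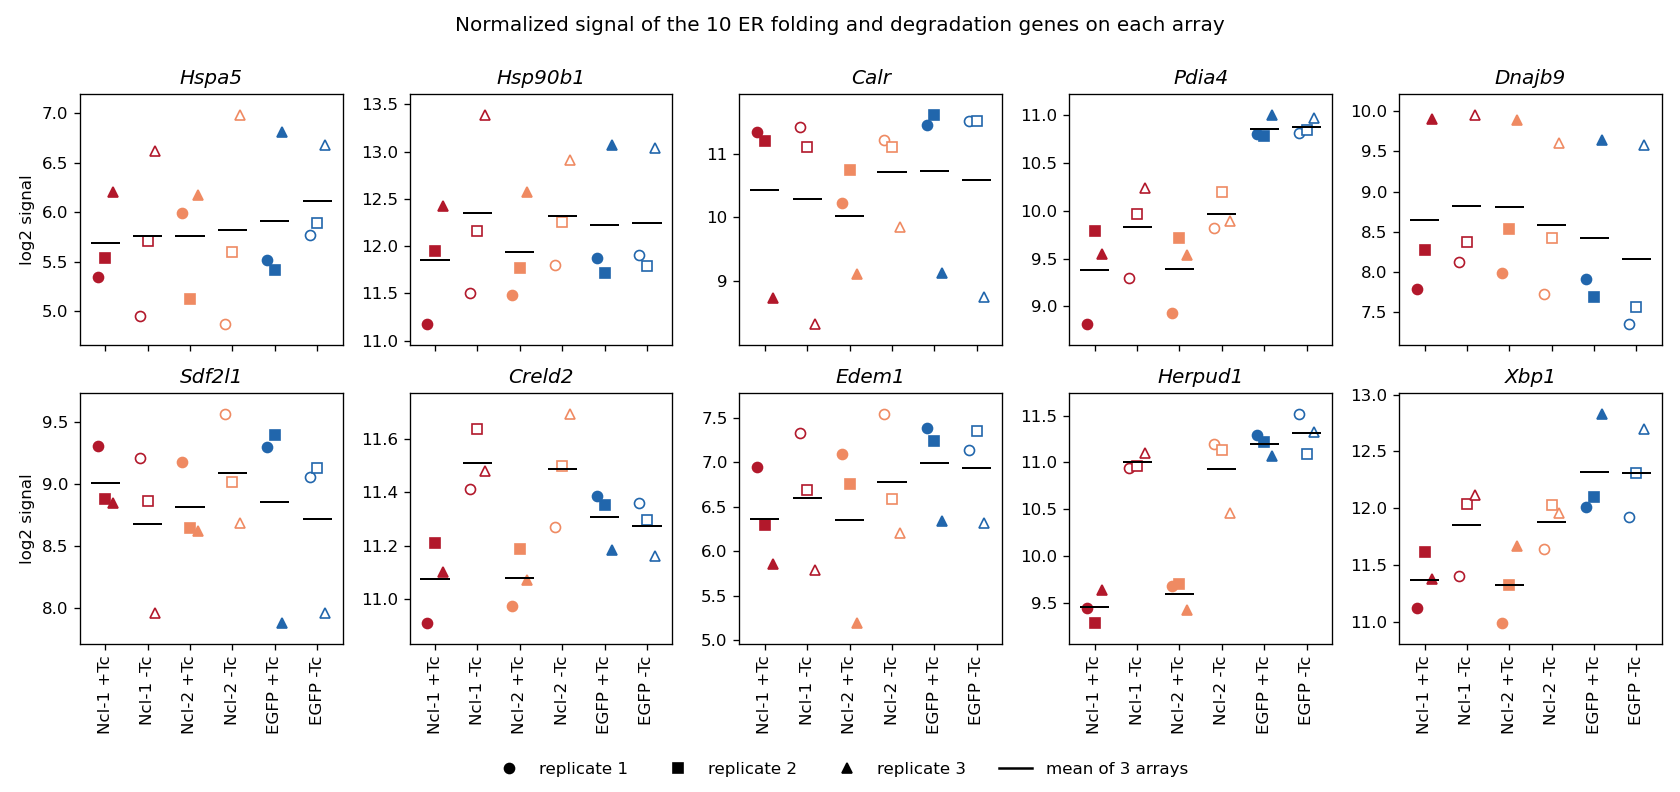
Log2 signal (vertical axes, a scale of its own per gene) of each member on each of the 18 arrays, by group (horizontal axes). Symbols give the replicate number, filled symbols are +Tc and open symbols -Tc, and bars are means of 3 arrays. Herpud1 separates the 6 nucleolin +Tc arrays (9.28 to 9.70) from the other 12 (10.45 to 11.52), while Calr, Dnajb9, Hsp90b1 and Hspa5 spread mainly by replicate number.

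Herpud1 encodes a membrane protein of the ER that helps assemble the Hrd1 ubiquitin ligase complex, which retrotranslocates misfolded proteins for degradation. Its log2 signal was 9.44, 9.28 and 9.63 in Ncl-1 +Tc, against 10.94, 10.96 and 11.11 in Ncl-1 -Tc. It was 9.67, 9.70 and 9.42 in Ncl-2 +Tc, against 11.19, 11.14 and 10.45 in Ncl-2 -Tc. In EGFP +Tc it was 11.30, 11.22 and 11.07, against 11.52, 11.08 and 11.33 in EGFP -Tc. Groups did not overlap in either nucleolin line, and they overlapped in the EGFP line.

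Herpud1 fell by 1.55 ± 0.21 in the Ncl-1 line, to 34.1% of the -Tc signal (adjusted p from limma = 0.000292), and by 1.33 ± 0.21 in the Ncl-2 line (adjusted p = 0.000957), to 39.8%. The difference in the EGFP line was -0.12 ± 0.21 (adjusted p = 1.00). The mean response of the nucleolin lines minus the EGFP response was -1.33 ± 0.26 (adjusted p = 0.00974), in a comparison where 3.29% of all genes and 2.24% of all probes were called. The responses of Ncl-1 and Ncl-2 differed by -0.22 ± 0.30 (adjusted p = 1.00), and limma called 0% of genes in that comparison, with 41 at an unadjusted p below 0.05. Within replicate numbers the difference was between -1.67 and -1.47 in the Ncl-1 line and between -1.52 and -1.04 in the Ncl-2 line.

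The second Herpud1 probe gave 8.48, 8.36 and 9.25 in Ncl-1 +Tc, against 10.16, 10.24 and 10.75 in Ncl-1 -Tc, and 9.07, 8.83 and 8.93 in Ncl-2 +Tc, against 10.31, 10.64 and 10.33 in Ncl-2 -Tc. It fell, with -1.69 ± 0.25 and -1.48 ± 0.25 in the Ncl-1 and Ncl-2 lines (adjusted p = 0.000788 and 0.00193 over all probes), with a difference from the EGFP response of -1.53 ± 0.31 (adjusted p = 0.0154). Both probes therefore gave the same direction and call in each nucleolin line. Leaving out any 1 array left Herpud1 called as a gene, between -1.64 and -1.47 in the Ncl-1 line and between -1.57 and -1.20 in the Ncl-2 line. Under median scaling in place of quantile normalization the difference from the EGFP response was -1.23 and missed the threshold (adjusted p = 0.237).

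**Figure D2:**
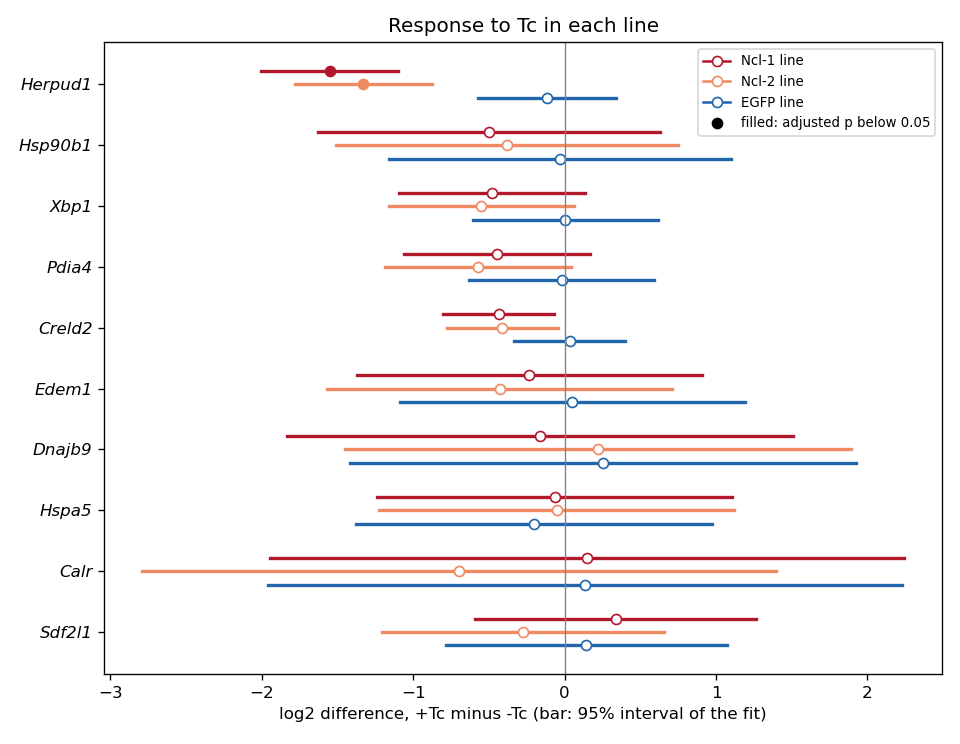
Log2 difference of +Tc minus -Tc (horizontal axis) for each member (vertical axis) in the Ncl-1, Ncl-2 and EGFP lines, with the 95% interval of the fit without the replicate block. Filled points passed an adjusted p of 0.05; these are Herpud1 in the Ncl-1 line (-1.55) and in the Ncl-2 line (-1.33). Intervals are widest for Calr and Dnajb9.

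The member chaperones of the ER lumen did not pass the test without the replicate block. Hspa5, the chaperone that also holds the stress sensors inactive, was measured by 1 dim probe with log2 signals between 4.87 and 6.98, and it was not detected on 1 array each of Ncl-1 -Tc and Ncl-2 -Tc. Its difference was -0.07 ± 0.55 in the Ncl-1 line, -0.05 ± 0.55 in the Ncl-2 line and -0.20 ± 0.55 in the EGFP line, with a 95% interval in the Ncl-1 line from -1.24 to 1.11. With the replicate block its SE was 0.28 and it was not called in any of the 3 lines (adjusted p = 0.887, 0.915 and 1.00).

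Hsp90b1, the ER member of the Hsp90 family, had 11.18, 11.95 and 12.42 in Ncl-1 +Tc, against 11.50, 12.16 and 13.39 in Ncl-1 -Tc. In Ncl-2 +Tc it had 11.49, 11.77 and 12.58, against 11.80, 12.25 and 12.92 in Ncl-2 -Tc. Groups overlapped, although the +Tc array was lower than the -Tc array of the same number in 3 of 3 pairs in each nucleolin line. The differences were -0.50 ± 0.53 (adjusted p = 0.714) and -0.38 ± 0.53 (adjusted p = 0.825), and -0.03 ± 0.53 in the EGFP line.

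Calr, which binds glycoproteins with trimmed sugar chains and buffers calcium, had 11.35, 11.20 and 8.74 in Ncl-1 +Tc, against 11.42, 11.10 and 8.33 in Ncl-1 -Tc. It had 10.22, 10.74 and 9.11 in Ncl-2 +Tc, against 11.21, 11.10 and 9.84 in Ncl-2 -Tc. Replicate 3 was low in every group, with a mean gap of -2.21, and the SE of the fit was 0.98 accordingly. The differences were 0.15 in the Ncl-1 line, -0.70 in the Ncl-2 line (lower in 3 of 3 pairs, adjusted p = 0.105 with the replicate block) and 0.14 in the EGFP line.

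Pdia4, a disulfide isomerase with several thioredoxin domains, had lower values in the nucleolin lines than in the EGFP line without Tc. It had 9.29, 9.97 and 10.23 in Ncl-1 -Tc and 9.81, 10.19 and 9.90 in Ncl-2 -Tc, against 10.82, 10.85 and 10.97 in EGFP -Tc. All arrays of both nucleolin lines lay below all EGFP arrays. The difference between Ncl-1 -Tc and EGFP -Tc was -1.05 ± 0.29 (adjusted p = 0.113; 0.00510 with the replicate block) and that between Ncl-2 -Tc and EGFP -Tc was -0.91 ± 0.29 (adjusted p = 0.172; 0.00924 with the block). No member was called in these baseline comparisons without the block, where limma called 0.985% and 0.928% of all genes. In each, 1 member, Pdia4, had an unadjusted p below 0.05, beside 9.52% and 10.9% of all genes. With Tc, Pdia4 had 8.82, 9.79 and 9.54 in Ncl-1 +Tc and 8.93, 9.71 and 9.54 in Ncl-2 +Tc, and the groups did not overlap with -Tc in the Ncl-2 line alone. The differences from -Tc were -0.45 ± 0.29 (adjusted p = 0.443) and -0.57 ± 0.29 (adjusted p = 0.282), beside -0.02 ± 0.29 in the EGFP line.

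Among the cochaperones, Creld2, a secreted and ER-resident protein with disulfide isomerase activity, had the smallest error of the members. It had 10.91, 11.21 and 11.10 in Ncl-1 +Tc, against 11.41, 11.64 and 11.48 in Ncl-1 -Tc, and 10.97, 11.19 and 11.07 in Ncl-2 +Tc, against 11.27, 11.50 and 11.69 in Ncl-2 -Tc. In the EGFP line it had 11.39, 11.35 and 11.18 with Tc, against 11.36, 11.30 and 11.16 without. Groups did not overlap in either nucleolin line, and the values overlapped in the EGFP line. The differences were -0.44 ± 0.17 (adjusted p = 0.149), -0.41 ± 0.17 (adjusted p = 0.177) and 0.04 ± 0.17. The second Creld2 probe gave -0.49 ± 0.31, -0.42 ± 0.31 and 0.03 ± 0.31, and missed the threshold as well.

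Dnajb9 (ERdj4), a J-domain protein that hands substrates to Hspa5 and to degradation, had 7.78, 8.26 and 9.90 in Ncl-1 +Tc, against 8.12, 8.37 and 9.95 in Ncl-1 -Tc, and 7.98, 8.53 and 9.89 in Ncl-2 +Tc, against 7.71, 8.42 and 9.60 in Ncl-2 -Tc. Replicate 3 was high in all groups, by 1.79 on average. The differences of -0.16, 0.22 and 0.25 in the Ncl-1, Ncl-2 and EGFP lines each had an SE of 0.78 and did not share a sign. Sdf2l1, a partner of Hspa5 and the J-domain proteins, gave 0.34 ± 0.44, -0.27 ± 0.44 and 0.14 ± 0.44, again with no common sign. Its replicate 3 had a mean gap of -0.81.

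In the degradation branch, Edem1, which extracts mannose-trimmed glycoproteins from the folding cycle, had 6.95, 6.29 and 5.86 in Ncl-1 +Tc, against 7.33, 6.69 and 5.79 in Ncl-1 -Tc. It had 7.10, 6.76 and 5.20 in Ncl-2 +Tc, against 7.55, 6.59 and 6.21 in Ncl-2 -Tc, and replicate 3 was low in all groups, with a mean gap of -1.08. Groups overlapped, and the differences were -0.23 ± 0.53, -0.43 ± 0.53 and 0.05 ± 0.53 in the Ncl-1, Ncl-2 and EGFP lines. Edem1 thus missed the threshold where Herpud1, a gene of the same branch, passed it; the difference between the 2 genes was not tested. The further Edem1 probes, a second Calr probe and a second Dnajb9 probe did not pass the detection filter, and the last of these was detected on 1 or 2 of 3 arrays in every group.

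Xbp1, the transcription factor whose mRNA is spliced by the sensor IRE1, had 11.12, 11.62 and 11.38 in Ncl-1 +Tc, against 11.40, 12.04 and 12.11 in Ncl-1 -Tc. It had 10.99, 11.33 and 11.66 in Ncl-2 +Tc, against 11.64, 12.03 and 11.96 in Ncl-2 -Tc. The +Tc array was lower in 3 of 3 pairs in both lines, but the groups overlapped. The differences were -0.48 ± 0.29 (adjusted p = 0.398) and -0.55 ± 0.29 (adjusted p = 0.308), and 0.01 ± 0.29 in the EGFP line. The array measures total Xbp1 signal at 1 probe, so splicing was not analysed here.

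Fitting the replicate number as a block, which removes gaps such as those of Calr and Dnajb9, changed the member counts. The SE was 0.31 with the block against 0.98 without it for Calr, and 0.18 against 0.78 for Dnajb9. With the replicate block, 2 of 10 members were called in the Ncl-1 line (Herpud1 and Creld2, adjusted p = 0.0383 for Creld2), where 26.7% of all genes were called. In the Ncl-2 line 4 of 10 were called, Herpud1, Xbp1 (adjusted p = 0.0269), Pdia4 (adjusted p = 0.0437) and Creld2 (adjusted p = 0.0491), where 26.9% of all genes were called. All these calls were lower with Tc. Tested over all probes with the block, the second Creld2 probe missed the threshold in the Ncl-1 and Ncl-2 lines (adjusted p = 0.0836 and 0.128). The brighter Creld2 probe passed in the Ncl-1 line (adjusted p = 0.0491) and missed in the Ncl-2 line (adjusted p = 0.0603). The members' share was below that of all genes in the Ncl-1 line and above it in the Ncl-2 line. With 10 members such shares are coarse. For a difference between the Ncl-1 and Ncl-2 responses the block called 0 members, beside 0% of all genes. In the EGFP line the block gave 0 members and 0% of all genes, with 75 genes at an unadjusted p below 0.05. For the nucleolin minus EGFP responses, the block called Herpud1 alone among members, where 14.3% of all genes were called. In the baseline comparisons it called 2 members in Ncl-1 -Tc against EGFP -Tc (Pdia4 lower and Dnajb9 higher, adjusted p = 0.0338), beside 8.62% of all genes, and Pdia4 in Ncl-2 -Tc against EGFP -Tc, beside 12.2%.

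Across the 18 arrays, with each gene centred within replicate number, 31 of 45 pairs of members correlated positively, with a median Pearson r of 0.27. The highest were Pdia4 with Xbp1 (0.91), Herpud1 with Xbp1 (0.87) and Herpud1 with Pdia4 (0.83), and the lowest was Dnajb9 with Pdia4 (-0.61). The arrays share the lines and the Tc treatment, so these values describe common group differences as well. The kept gene most like each member by this measure was Pclaf for Herpud1 (0.98), Kbtbd8 for Xbp1 (0.97), Cdkn2aipnl for Pdia4 (0.98), Snhg5 for Creld2 (0.95) and Cul2 for Hsp90b1 (0.95). It was Apip for Sdf2l1 (0.93), Nacc1 for Calr (0.92), Dnaaf3 for Edem1 (0.91), Paip1 for Dnajb9 (0.82) and Thap4 for Hspa5 (0.79).

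The rest of the ER pathway was examined through 7 further lists. Among 32 other ER chaperones and oxidoreductases, 2 fell in the Ncl-1 line and 3 in the Ncl-2 line, and none was called higher, beside 8.12% and 9.13% of all genes called in either direction. With the replicate block, 5 were called lower and 1 higher in the Ncl-1 line and 7 lower and 0 higher in the Ncl-2 line, beside 26.7% and 26.9% of all genes. Dnajc3, a J-domain cochaperone of Hspa5 whose window holds an ERSE, fell by 1.40 ± 0.24 (adjusted p = 0.00186) in the Ncl-1 line and by 0.81 ± 0.24 (adjusted p = 0.0476) in the Ncl-2 line. An ERSE also lay in the windows of Canx, Pdia6 and Ero1b of this list, which were not among the calls without the block. Any link between the ERSE and the responses was not tested. The disulfide isomerase Txndc5 fell in both lines, with -1.13 ± 0.21 (adjusted p = 0.00268) and -0.90 ± 0.21 (adjusted p = 0.0122). The prolyl isomerase Fkbp11 fell by 1.50 ± 0.43 in the Ncl-2 line (adjusted p = 0.0388) and had -0.98 ± 0.43 in the Ncl-1 line (adjusted p = 0.204; 0.00803 with the replicate block). The list's median was -0.26 and -0.22, against -0.04 and -0.05 over all genes, and 0.04 in the EGFP line.

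Some of these calls were lost when 1 array was left out. For Dnajc3 in the Ncl-2 line this held for 11 of the 18 arrays, including Ncl-2 -Tc replicate 1 (-0.65) and Ncl-2 +Tc replicate 3 (-0.66). The Txndc5 call in the Ncl-2 line was lost without Ncl-2 -Tc replicate 1 (-0.80), and the Fkbp11 call was lost without any 1 of the 6 arrays of that line (-1.68 to -1.40).

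In the other lists, 0 of 34 genes of ER-associated degradation were called by limma in the Ncl-1 and Ncl-2 lines, 0 of 36 of the translocon, signal peptidase and oligosaccharyltransferase, and 0 of 14 of ER calcium handling. Of all genes, 8.12% and 9.13% were called. At an unadjusted p below 0.05 there were 3, 2 and 1 genes of these lists in the Ncl-1 line and 4, 0 and 1 in the Ncl-2 line, beside 20.4% and 20.8% of all genes. With the replicate block the calls became 4 higher and 1 lower, 0 and 3, and 1 and 1 in the Ncl-1 line, and 3 and 1, 0 and 3, and 0 and 4 in the Ncl-2 line. The block called 26.7% and 26.9% of all genes. The lectin Os9, which selects degradation substrates, had 0.65 ± 0.25 and 0.64 ± 0.25 in the Ncl-1 and Ncl-2 lines (adjusted p = 0.142 and 0.143), and was called higher in both with the replicate block (adjusted p = 0.0384 and 0.0391). Marchf6 of the same list had -0.59 ± 0.22 and -0.40 ± 0.22 in these lines (adjusted p = 0.122 and 0.336). The block called Marchf6 lower in the Ncl-1 line (adjusted p = 0.00832) but not in the Ncl-2 line (adjusted p = 0.0568). Among 34 genes of COPII export and retrieval, Sec24b, a cargo-binding coat subunit, was called higher in the Ncl-2 line (0.88 ± 0.26, adjusted p = 0.0475), a call lost without any 1 of 15 of the 18 arrays (0.67 to 1.02 over all arrays left out in turn). Its value in the Ncl-1 line was 0.86 ± 0.26 (adjusted p = 0.0583; 0.00344 with the replicate block). The Ncl-2 call was the 1 call of the list without the block, whereas with it 3 genes were called higher and 4 lower in the Ncl-1 line and 2 higher and 4 lower in the Ncl-2 line, beside 26.7% and 26.9% of all genes. Kdelr3 of this list had -1.10 ± 0.33 and -0.90 ± 0.33 in the Ncl-1 and Ncl-2 lines without the block (adjusted p = 0.0526 and 0.113). It was called lower in both lines with the block (adjusted p = 0.000222 and 0.00109).

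Among 18 other sensors and factors of the unfolded protein response, Ppp1r15b, which directs a phosphatase to eIF2α, fell by 1.08 ± 0.24 in the Ncl-1 line (adjusted p = 0.0112) and by 0.83 ± 0.24 in the Ncl-2 line (adjusted p = 0.0443). Its call in the Ncl-2 line was lost without any 1 of 13 of the 18 arrays (-0.96 to -0.68 over all 18). Eif2ak3, which encodes PERK, had 1.14 ± 0.35 (adjusted p = 0.0574) and 0.97 ± 0.35 (adjusted p = 0.106), positive where most members were negative. With the replicate block Eif2ak3 was called higher in both lines (adjusted p = 0.00135 and 0.00405) and in the nucleolin minus EGFP comparison (adjusted p = 0.0185). Its mean log2 signal over all arrays was 5.50, near background. Over the 30 alternatives its difference ranged from 0.65 to 2.24 in the Ncl-1 line and from 0.59 to 1.58 in the Ncl-2 line. Ppp1r15b was the 1 call of this list in each line without the block, beside 8.12% and 9.13% of all genes. The block gave 2 higher and 1 lower in the Ncl-1 line and 1 higher and 1 lower in the Ncl-2 line, beside 26.7% and 26.9% of all genes.

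The list of ATF4 targets had the most calls of the 7 lists. Of its 23 kept genes, 8 were called lower and 0 higher in each nucleolin line, beside 8.12% and 9.13% of all genes called in either direction. Of the 5 genes of the list whose windows hold the composite core, Chac1 and Nupr1 were among these calls. Any link between this core and the responses was not tested. With the replicate block 11 were called lower and 2 higher in the Ncl-1 line and 12 lower and 3 higher in the Ncl-2 line, beside 26.7% and 26.9% of all genes. Without the block the list had a median of -0.55 in the Ncl-1 line and -0.90 in the Ncl-2 line, and none was called in the EGFP line. Chac1, which breaks down glutathione, fell, with differences of -3.78 ± 0.32 in the Ncl-1 line and -3.79 ± 0.32 in the Ncl-2 line. Mthfd2, an enzyme of mitochondrial folate metabolism, fell as well, with -1.76 ± 0.28 and -1.60 ± 0.28. Sars, the seryl-tRNA synthetase, fell too, with -1.46 ± 0.26 and -1.65 ± 0.26. When each nucleolin line was fitted alone the count of lower genes was 4 in each line, and under median scaling it was 5 in each. The list was chosen with these changes known, so its counts are no independent evidence of a direction.

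**Figure D3:**
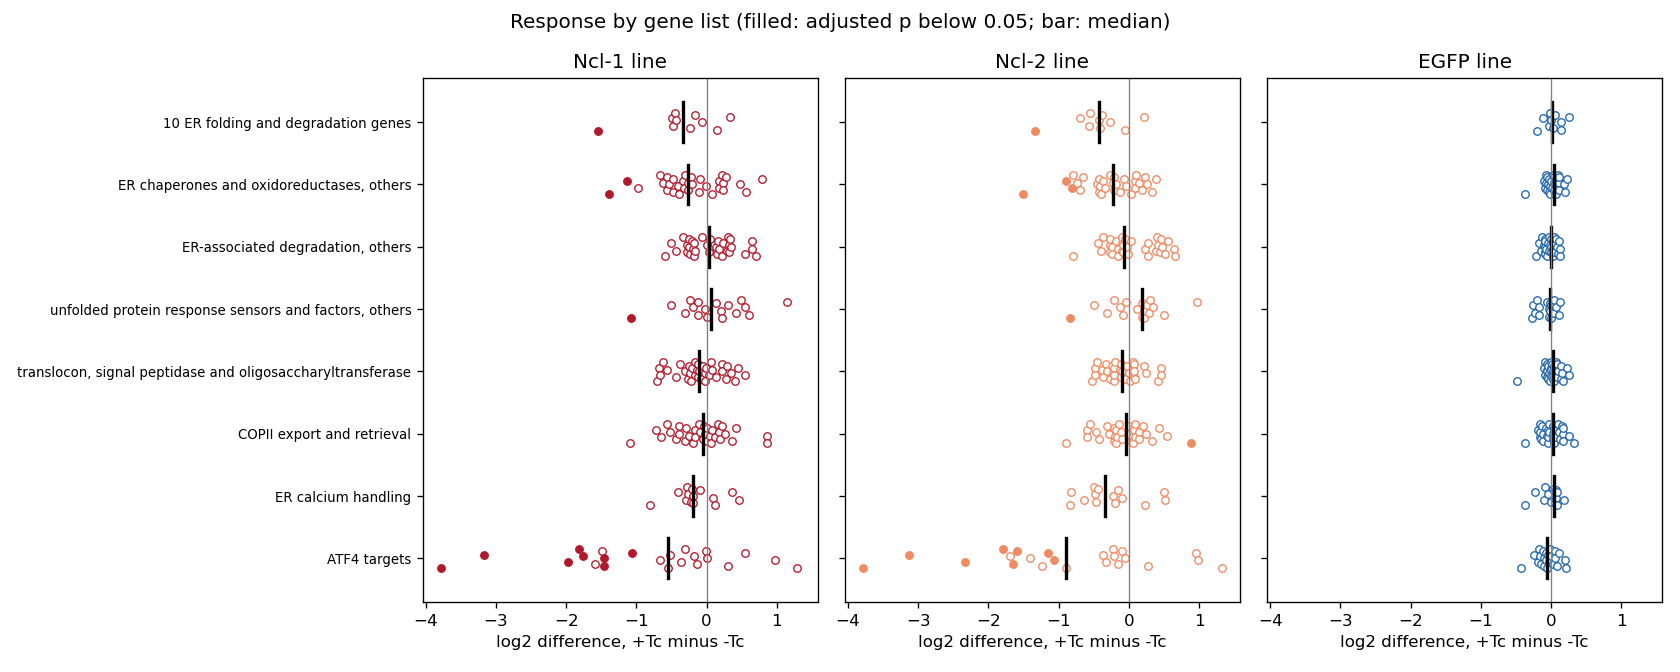
Log2 difference of +Tc minus -Tc (horizontal axis, the same scale in all panels) for every kept gene of the 10 members and the 7 other lists (vertical axis), in the Ncl-1, Ncl-2 and EGFP lines. Filled points passed an adjusted p of 0.05 and bars are medians; the ATF4 targets reach -3.78 in the Ncl-1 line and -3.79 in the Ncl-2 line, and no gene of these lists passed in the EGFP line.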

How the data were processed

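Total RNA of 18 CGR8 samples was hybridised to 1-colour Illumina Mouse-6 version 2 BeadChips, after Trizol extraction and column clean-up with DNase I, per the labels' protocols. Non-normalized probe intensities, some of them below 0, were deposited by the authors beside a detection p-value per probe on every array. Probes were summarised with GenomeStudio 2010.1, per the submitters' processing notes, with the background option not given in the sources used here. A second intensity table was deposited by the authors on a linear scale. Its array medians were 7.55 to 7.59 in replicates 1 and 2 (12 arrays) and 9.95 to 9.99 in replicate 3 (6 arrays), its normalization and centring are unknown, so it was used as an alternative only.

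From the first table, background was corrected in limma 3.58.1 under R 4.3.3 (normexp with control levels inferred from detection p-values, offset 16), arrays were quantile normalized and log2 was taken. Probes with a detection p under 0.05 on all 3 arrays of some group were kept. Gene names came from the platform annotation (34885 probes with 1 symbol, 18 with several, 10378 with none), and the brightest kept probe stood for a gene. One limma model with 6 group means (lmFit, contrasts.fit, eBayes) gave two-sided tests, adjusted by Benjamini-Hochberg over 10557 genes, or over 19154 probes for probe counts. The number of arrays limits the precision. The model was tested on simulated data.

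Same-numbered arrays of all groups deviated together from their group means (45 pairs with r between 0.372 and 0.957 and a median of 0.746). Pairs that differed in number and group had r between -0.875 and 0.716, with a median of -0.453. Deviations cancel within a group, so negative values for such pairs were partly set in advance. Whether the numbers pair the arrays beyond the gap of replicate 3 was not tested. The numbers were taken as a pairing, and a second fit with a replicate block is given where it changes a call of a named gene or a count of a list.

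The members and lists were chosen with earlier results of these data known. Genes named are the members, Ncl, the gene most like each member and, from each other list, the 3 genes with the lowest p for the nucleolin minus EGFP difference, of which those named in the text are the called ones and a few others. The marker genes named and Dnajb11, Cnpy2 and Aldh18a1 were chosen after their values or matches were seen. RefSeq windows of GRCm38.p6 were matched by symbol for all 10 members. Alternatives changed the filter, background, offset, scaling, input table, array weights, prior, probe choice, block, samples in the fit and arrays used.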

Additional observations from a re-analysis of the deposited data

Results flagged for a closer look

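Among the members and the genes named by rule, 6 had a response to Tc in the nucleolin lines that differed from that in the EGFP line. This was judged by limma's test of the difference itself, which called 347 genes over all (3.29%). The genes named by rule were picked by the lowest p of this same test, so the number of them called is no evidence about their lists. Herpud1, the 1 member among the 6, had a nucleolin minus EGFP difference of -1.33 ± 0.26 on the log2 scale (adjusted p = 0.00974). The other 5 of these came from the lists of ER chaperones and ATF4 targets. Chac1 had -3.68 ± 0.40 (adjusted p = 0.000135), Mthfd2 -1.58 ± 0.34 (adjusted p = 0.0180), Sars -1.38 ± 0.32 (adjusted p = 0.0233), Dnajc3 -1.22 ± 0.30 (adjusted p = 0.0322) and Txndc5 -0.99 ± 0.25 (adjusted p = 0.0436). Herpud1 and Chac1 kept this call with each of the 18 arrays left out in turn. The calls of Mthfd2 and Sars were lost without EGFP -Tc replicate 1 (-1.54 and -1.40), EGFP -Tc replicate 2 (-1.60 and -1.34) or EGFP +Tc replicate 2 (-1.47 and -1.20), that of Dnajc3 without any 1 of 8 arrays (-1.29 to -1.09) and that of Txndc5 without any 1 of 15 arrays (-1.11 to -0.90 over all arrays left out). Aldh18a1, a further ATF4 target that was called and was picked after its values were seen, had -1.83 ± 0.43 (adjusted p = 0.0274). Fitting the replicate block called the difference for 5 more genes named by rule, beside 14.3% of all genes. They were Fkbp11 (-1.32, adjusted p = 0.00751), Ppp1r15b (-0.78, adjusted p = 0.00731), Eif2ak3 (1.02, adjusted p = 0.0185, mean log2 signal 5.50), Sec24b (0.82, adjusted p = 0.0250) and Kdelr3 of the COPII list (-0.94, adjusted p = 0.00603).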

How the results depend on the processing

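The count of called members was recomputed under 30 alternatives, 12 of the processing or the model and 18 that left out 1 array each. None reversed a direction of a called value, and Herpud1 was called in both nucleolin lines under all 30. Leaving out 1 array kept the gene counts at 1, 1 and 1 in the Ncl-1 line, the Ncl-2 line and the nucleolin minus EGFP comparison, and the probe count of the last ranged from 0 to 2 (0 without EGFP -Tc replicate 2 or EGFP +Tc replicate 2, 1 without EGFP +Tc replicate 1). Median scaling gave 0 genes and 0 probes in that comparison and 1 probe in each nucleolin line, and the deposited normalized table gave 1 probe in that comparison. Fitting only the groups compared gave 0 probes in the Ncl-1 line and 1 in the Ncl-2 line. The replicate block gave 2 genes in the Ncl-1 line, 4 genes and 4 probes in the Ncl-2 line, 2 genes and 2 probes in Ncl-1 -Tc against EGFP -Tc and 1 gene and 1 probe in Ncl-2 -Tc against EGFP -Tc. Over all genes it called 2819 against 857 without the block in the Ncl-1 line, 2842 against 964 in the Ncl-2 line, 1513 against 347 for nucleolin minus EGFP, and 910 against 104 and 1287 against 98 in the baseline comparisons of Ncl-1 and Ncl-2. Array weights, whose estimation did not converge, gave 3 genes and 5 probes in the Ncl-1 line, 6 and 8 in the Ncl-2 line, 3 and 5 for nucleolin minus EGFP, 4 and 6 in Ncl-1 -Tc against EGFP -Tc, and 3 and 3 in Ncl-2 -Tc against EGFP -Tc. The cause of these shifts was not tested. The Hspa5 probe lay near background, and the 4 member probes that did not pass the filter give no value.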
